A study of Cerrena unicolor with 12 samples.

Results

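The genes described here are 6 members of the starch and sucrose metabolism pathway of the white rot fungus *Cerrena unicolor* 87613: A01410.gene, A07489.gene, A06736.gene, A05970.gene, A09661.gene and A06836.gene. They belong to the 14 genes that the study listed under this pathway and are 6 of the 11281 genes in the deposited table. The study had selected its 14 genes on their expression in glucose cultures at cultivation day 6 (Cd-6) against cultivation day 10 (Cd-10), with 12 genes listed as lower and 2 as higher at Cd-6, and the 6 genes were taken so as to hold both directions (4 and 2). Values of the glucose cultures therefore chose them, and every comparison that uses those cultures is given below as a description of the 6 genes, with no p. RNA was sequenced from hyphae of wild-type strain 87613 in shaken culture. The study's methods name potato dextrose medium and do not mention fructose, while the sample titles name either fructose or glucose fermentation. Based on those titles, 4 groups of 3 replicate cultures were compared: fructose Cd-10, fructose Cd-6, glucose Cd-10 and glucose Cd-6. All groups share this single strain, so that differences between cultures are differences within 1 isolate. The study compared the periods to look for genes that accompany changes in the secretion of laccase, a copper-containing oxidase.

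Starch and sucrose metabolism joins the enzymes that build and break down glucose-containing carbohydrates. It covers glycogen or starch, the disaccharides sucrose, maltose and trehalose, and also the β-glucans and cellulose, whose breakdown products feed glucose into glycolysis. In wood-decaying fungi, many of the enzymes that cut polysaccharides are secreted, while the enzymes of glycogen and trehalose turnover work inside the hyphae on stored sugar. Glucose and fructose both enter glycolysis after phosphorylation, and in many fungi readily used sugars lower the transcription of polysaccharide-degrading enzymes. The deposited table and the study's lists give no product for any of the 6 IDs, and the reference gene table, which is of another strain, matched 0 of the IDs. No enzyme, sequence or genome position is therefore given for them. A09661 and A06836 also stand in the study's list for biosynthesis of secondary metabolites, which holds 6 of the 14 genes.

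The 12 libraries held 10279983 to 12126094 assigned read pairs, recovered from the deposited values, and 10912 to 11102 genes above 0. All values below are normalized counts, which are read counts brought to a common scale over the 12 libraries with no correction for gene length, so that levels of different genes are not compared. Replicates of a group correlated across genes with Pearson's r of 0.952 to 0.987, where genes are no independent replicates, and no pair was so alike that it could be 1 library deposited again (chi-square of at least 11.9 per gene). All p-values set a difference against the spread between the 3 cultures per group, with each gene's spread drawn toward that of other genes. Glucose Cd-6 replicate 2 stood apart on the axis with 18.1% of the variance, at 62.6 against 13.2 and 31.998 for the other cultures of its group. Because the IDs carry no products, the labelled cell type could not be checked against marker genes. Fewer cells and less RNA per cell cannot be told apart in these bulk libraries.

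In the fructose cultures, which the study did not use to draw up its list, all 6 genes differed between the periods in the direction listed for glucose. The 6 were picked from that list with earlier results of these data known. A01410, A07489, A06736 and A05970 were higher at Cd-10, and A09661 and A06836 were lower. The log2 differences between Cd-10 and Cd-6 ran from -3.07 to 5.27, and for each of the 6 genes the fructose Cd-10 libraries did not overlap with the fructose Cd-6 libraries. Among the 10060 genes tested in fructose by limma, 14.6% were higher and 15.2% were lower at Cd-10 at a Benjamini-Hochberg adjusted p below 0.05. Every Cd-10 library lay above every Cd-6 library in 23.8% of these genes and below in 22.8%. With libraries scaled to equal sums, the higher genes made up 62.8% of the called genes, against 49.1% under the main scaling, with a median shift of 0.12 on the log2 scale over all genes, and the calls of the 6 genes stayed the same.

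**Figure D1:**
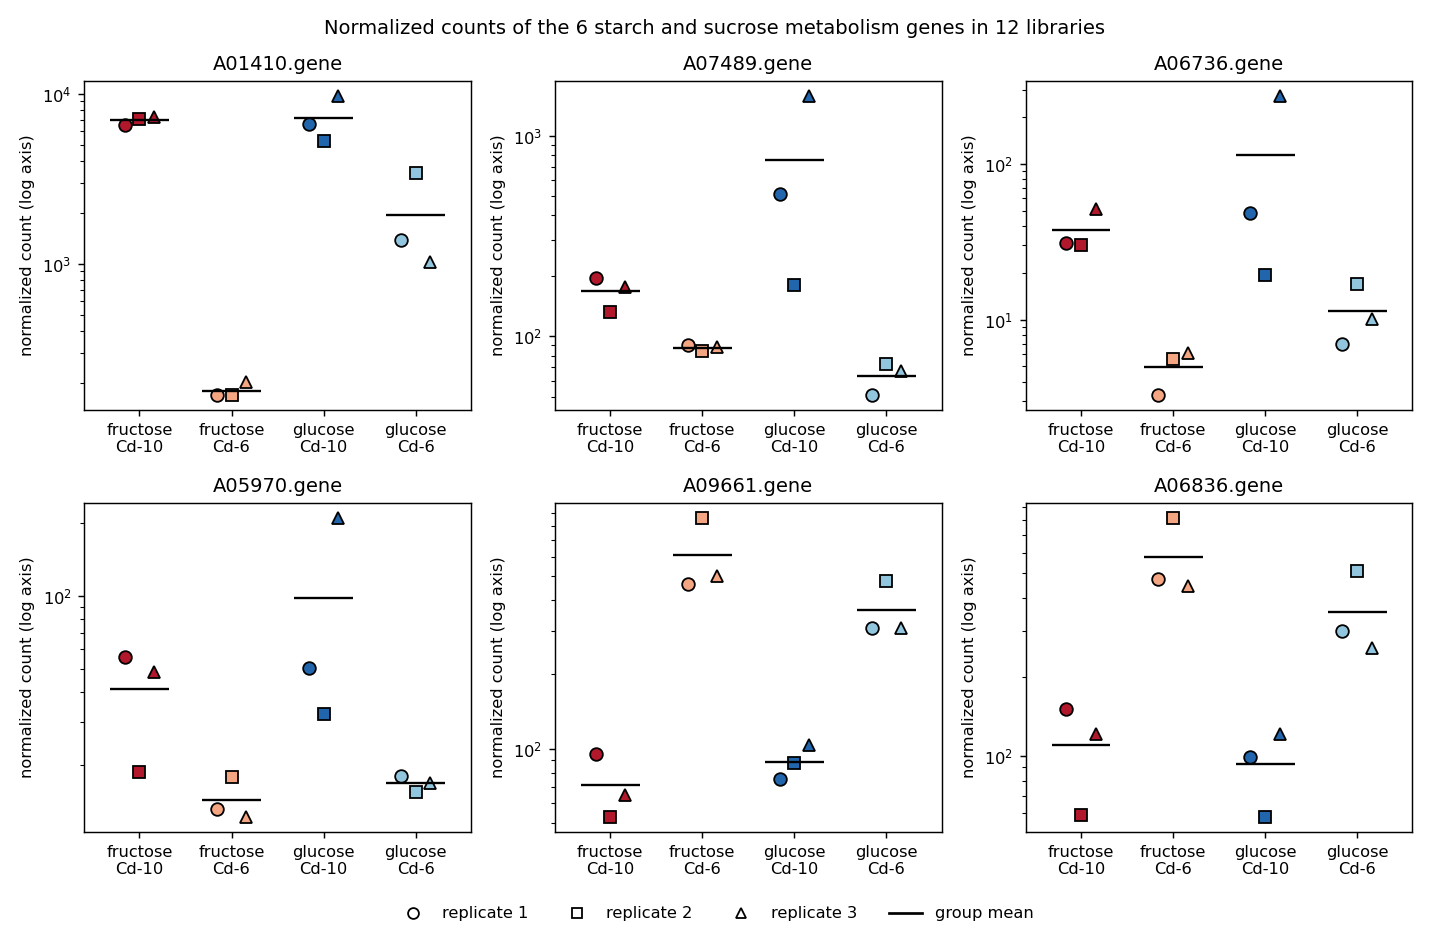
Normalized counts (log axis) of the 6 genes in the fructose Cd-10, fructose Cd-6, glucose Cd-10 and glucose Cd-6 groups. Each symbol is 1 library, its shape the replicate number, and the line the mean of 3 libraries. A01410 has means of 6989 and 7205 at Cd-10 in fructose and glucose and of 180 at fructose Cd-6, A09661 and A06836 are high in both Cd-6 groups, and glucose Cd-10 replicate 3 is the highest library for A07489, A06736 and A05970.

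A01410 showed the widest difference between the periods among the 6 genes in fructose. Its normalized counts were 6542, 7114 and 7311 in the fructose Cd-10 libraries, against 169, 169 and 200.3 in the fructose Cd-6 libraries. The replicates of each group lay close together and the groups were far apart, with a mean of 6989 ± 399 at Cd-10 and 180 ± 18 at Cd-6 (SD, n = 3 each). The log2 difference was 5.27 with a standard error of 0.14, a 38.6-fold change on the log2(value + 1) scale (adjusted p = 3.4e-08 from limma). In the fructose comparison, 7 of the 10060 genes had a larger increase and 1 gene had a smaller p. Leaving out any 1 fructose library kept the log2 difference between 5.23 and 5.35. In glucose, A01410 had 6648, 5282 and 9686 normalized counts at Cd-10, against 1382, 3396.9 and 1027 at Cd-6. The glucose groups did not overlap either, and their log2 difference was 2.05 (standard error 0.44). It was 2.55 without glucose Cd-6 replicate 2, the highest library of that group, and 1.69 without glucose Cd-6 replicate 3.

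The libraries of A01410 overlapped between the sugars at Cd-10 and lay apart at Cd-6. At Cd-6 its mean was 180 ± 18 in fructose and 1935 ± 1278 in glucose (SD, n = 3 each), and all 3 fructose libraries were below all 3 glucose libraries. In the order of the groups, fructose Cd-10 and glucose Cd-10 came first with no difference in mean log2 value (0.00), glucose Cd-6 followed, and fructose Cd-6 came last, both apart from the group before them.

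A07489 was higher at Cd-10 by a smaller amount in fructose. It had 196, 133 and 175 normalized counts in the fructose Cd-10 libraries, against 90.6, 84.5 and 88.0 at fructose Cd-6. The Cd-6 cultures agreed closely, and the lowest Cd-10 culture was still above them. The log2 difference was 0.90 with a standard error of 0.20 (95% confidence interval 0.45 to 1.35, adjusted p = 0.0088 from limma). The call was lost when all 12 libraries shared 1 estimate of the spread (adjusted p = 0.24, the highest of the alternatives, which began at 0.0014). In glucose the same gene had 512, 181 and 1574 normalized counts at Cd-10, against 50.9, 73.0 and 67.2 at Cd-6. The glucose Cd-10 cultures spread 8.71-fold, all of them above the Cd-6 cultures. The log2 difference in glucose was 3.05 (standard error 0.67), and it was 2.27 without Cd-10 replicate 3 and 3.82 without Cd-10 replicate 2.

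The order of the groups for A07489 was glucose Cd-10, fructose Cd-10, fructose Cd-6 and glucose Cd-6. The first pair overlapped, since the lowest glucose Cd-10 library, at 181, lay within the fructose Cd-10 range. The other neighbours did not overlap, and at Cd-6 the fructose libraries (84.5 to 90.6) lay above the glucose libraries (50.9 to 73.0).

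A06736 was weakly counted. It had 31.1, 30.1 and 51.5 normalized counts at fructose Cd-10, from 30, 29 and 53 read pairs, against 3.28, 5.56 and 6.07 at fructose Cd-6, from 3, 5 and 6 read pairs. All Cd-10 libraries were thus above all Cd-6 libraries, but the gene passed the filter on low values only through its Cd-10 libraries, so that its call is a description and no support for a count of genes past the test. Its log2 difference was 2.66 with a standard error of 0.43 (adjusted p = 0.0015 from limma). The 112 pairs at Cd-10 against 14 at Cd-6 gave a ratio of 7.58, with an exact 95% interval of 4.33 to 14.3 that covers counting error only. In glucose it had 48.5, 19.4 and 273 normalized counts at Cd-10, against 6.99, 17.0 and 10.1 at Cd-6. The glucose groups were apart only by the narrow gap between 19.4 and 17.0. These came from 18 read pairs at Cd-10 and 21 at Cd-6, so that their order rests on the scaling. The log2 difference in glucose was 2.49 (standard error 0.87), 1.46 without Cd-10 replicate 3 and 3.33 without Cd-10 replicate 2.

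A05970 gave the least firm difference. It had 55.9, 18.7 and 48.6 normalized counts at fructose Cd-10, against 13.1, 17.8 and 12.1 at fructose Cd-6. The Cd-10 replicate 2 culture (18 read pairs) lay just above the highest Cd-6 culture (16 pairs), while the other Cd-10 cultures were well above. The 122 pairs at Cd-10 against 40 at Cd-6 gave a ratio of 2.89. Its exact 95% interval was 2.01 to 4.24 and covers counting error only. The log2 difference was 1.32 with a standard error of 0.44 (95% confidence interval 0.33 to 2.32, adjusted p = 0.0492 from limma). Its side of the threshold depended on the processing: the adjusted p lay between 0.0084 and 0.16 over 16 alternatives, and 8 of them kept the call. The call was lost without any 1 of the fructose libraries except Cd-10 replicate 2 (adjusted p of 0.069 to 0.16 from limma). In glucose it had 50.4, 32.3 and 210.0 normalized counts at Cd-10, against 18.0, 15.4 and 16.8 at Cd-6. The glucose Cd-6 cultures were nearly equal, and the log2 difference of 2.02 (standard error 0.63) was 1.24 without Cd-10 replicate 3 and 2.57 without Cd-10 replicate 2.

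A06736 and A05970 had the same order of the 4 groups, with glucose Cd-10 first, then fructose Cd-10, glucose Cd-6 and fructose Cd-6. In both genes the Cd-10 groups overlapped each other. The Cd-6 groups overlapped for A05970, with 12.1 to 17.8 in fructose and 15.4 to 18.0 in glucose. For A06736 they did not, with 3.28 to 6.07 in fructose and 6.99 to 17.0 in glucose, where the nearest libraries had 6 and 7 read pairs.

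A09661 and A06836 ran the other way and were the members lower at Cd-10. A09661 had 95.3, 52.9 and 65.1 normalized counts at fructose Cd-10, against 463, 859 and 499 at fructose Cd-6. Every Cd-10 library was thus far below every Cd-6 library, among which replicate 2 was the highest. A09661 fell by 3.07 on the log2 scale at Cd-10 in fructose (standard error 0.28, adjusted p = 5.6e-05 from limma), and 68 of the 10060 genes fell further. In glucose it had 75.1, 87.2 and 103 normalized counts at Cd-10, against 309, 478 and 307 at Cd-6, a log2 difference of -2.01 (standard error 0.24).

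A06836 had 150, 59.1 and 121 normalized counts at fructose Cd-10, against 476, 814 and 446 at fructose Cd-6. Here too replicate 2 was the highest Cd-6 culture, and at Cd-10 replicate 2 was the lowest. A06836 fell by 2.44 on the log2 scale at Cd-10 in fructose (standard error 0.34, adjusted p = 7.3e-04 from limma), and 135 of the 10060 genes fell further. In glucose it had 98.9, 58.1 and 121 normalized counts at Cd-10, against 301, 508 and 259 at Cd-6, a log2 difference of -1.92 (standard error 0.35). The calls of A09661 and A06836 in fructose held in all 16 alternatives.

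For both genes the order of the groups began with fructose Cd-6 and glucose Cd-6, which overlapped, followed by the Cd-10 groups, which also overlapped. Glucose Cd-10 was ahead of fructose Cd-10 for A09661, with means of 71.1 ± 21.8 in fructose and 88.6 ± 14.2 in glucose (SD, n = 3 each), and behind it for A06836, with 110 ± 46.4 in fructose and 92.7 ± 31.98 in glucose (SD, n = 3 each). These Cd-10 differences were within the spread between replicates.

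**Figure D2:**
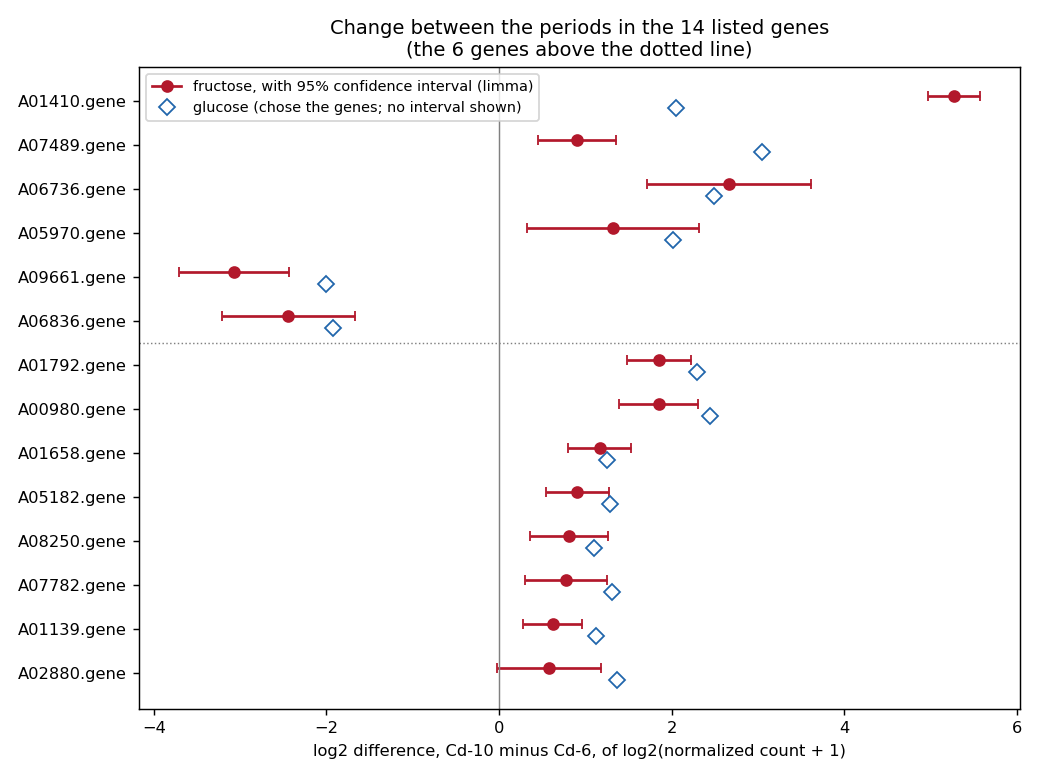
Log2 difference between Cd-10 and Cd-6 of the 14 listed genes, the 6 genes above the dotted line. Filled circles are fructose with the 95% confidence interval from limma (3 libraries per period), and open diamonds are glucose, whose values chose the genes and carry no interval. In fructose 12 genes lie above 0 and 2 below, from -3.07 for A09661 to 5.27 for A01410, and the interval of A02880 alone reaches 0.

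The other 8 genes of the pathway list had all been listed as lower at Cd-6 in glucose. In fructose, 7 of these 8 genes were higher at Cd-10 at an adjusted p below 0.05 (limma), 0 were lower, and 1 did not pass. A00980 had a mean of 1044 ± 249 normalized counts at fructose Cd-10 and 285 ± 51.6 at fructose Cd-6 (SD, n = 3 each), a log2 difference of 1.85. A01792 had 353 ± 20.7 at fructose Cd-10 and 96.9 ± 10.6 at fructose Cd-6 (SD, n = 3 each), also a log2 difference of 1.85. A01658 followed with 1.16, and A05182 (0.91), A08250 (0.81), A07782 (0.78) and A01139 (0.62) were below 1. For A02880, named after its values were seen, the log2 difference of 0.58 did not pass the test (95% confidence interval -0.03 to 1.18, adjusted p = 0.14 from limma), and its libraries overlapped. Leaving A06736 aside, 10 of the 13 other listed genes were higher and 2 lower at Cd-10 in fructose, with a median log2 difference of 0.90 against 0.00 for all genes tested. Counting A06736, whose call is a description only, the higher genes numbered 11, and 7 without fructose Cd-6 replicate 1. The lower genes stayed at 2 in every alternative.

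Genes that moved in glucose often moved the same way in fructose, so that these counts are to be read against that share. Among the 1504 genes tested in both sugars whose glucose groups did not overlap and differed by at least 1 on the log2 scale, a set that holds all 14 listed genes, 85.3% had the same sign in fructose, and 52.9% passed an adjusted p below 0.05 in that direction. Without the genes that reached the filter in only 1 fructose period, of which A06736 is one, the share that passed was 52.5%. Of the 13 other listed genes, 13 had the same sign and 12 passed. The study chose its genes by a p threshold as well as a log2 difference. The share above is therefore not matched to that choice. The citrate cycle list of the same study, picked on the same glucose cultures, had 9 of 9 genes higher at Cd-10 in fructose, and its glutathione metabolism list 9 of 10 lower. No test of a difference between the 3 lists was made.

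In glucose, where the choice was made, all 14 genes lay apart between the periods, 12 above and 2 below at Cd-10, A06736 only narrowly. Of all 10201 genes tested there, 22.2% lay above and 22.5% below. The smallest glucose difference within the list was 1.10 for A08250 on the log2 scale, and within the 6 genes it was the fall of A06836. Pathway membership of genes outside the study's list was not used here, so that no gene just outside it can be given. The difference in fructose was smaller than that in glucose for 10 of the 14 genes and larger for 4, namely A01410, A06736, A09661 and A06836. For A06736 this order turned with a pseudocount of 5 (2.04 in fructose and 2.19 in glucose), by edgeR (2.87 and 3.28) and by DESeq2 (2.90 and 3.32). Whether the change differed between the sugars was not tested, because the glucose values had chosen the genes.

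The sugars were compared over the mean of both periods. This comparison shares the glucose libraries with the choice of the genes, so their values are a description and carry no p. Among all 10396 genes tested by limma, 3.6% were higher and 5.22% were lower in fructose at an adjusted p below 0.05. With libraries scaled to equal sums or as deposited, the median log2 difference of all genes was -0.11 and -0.12, against 0.01 under the main scaling, and the higher genes made up 21.9% and 16.7% of the called genes, against 40.8%. A01410 had the most negative log2 difference of the 6 genes, -1.62 (95% confidence interval -2.14 to -1.09), and 45 of the 10396 genes had a more negative one. It was -1.74 under both of the other scalings, and -1.37 without glucose Cd-6 replicate 2. By period, it was -3.23 at Cd-6 and 0.00 at Cd-10.

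For the other 5 genes the log2 difference between fructose and glucose is likewise given with its 95% confidence interval. These intervals describe the spread between cultures and serve as no test, since glucose values chose the genes. The difference was -0.60 for A07489 (-1.42 to 0.23), -0.90 for A06736 (-2.001 to 0.20) and -0.56 for A05970 (-1.45 to 0.33). It was 0.18 for A09661 (-0.25 to 0.62) and 0.46 for A06836 (-0.13 to 1.05). Without glucose Cd-10 replicate 2 that of A07489 was -0.98. Of the 14 listed genes, 9 had a negative and 5 a positive difference, against 5088 and 5308 of all 10396 genes. Calls of listed genes in this comparison serve as no test, since its glucose libraries chose them. They are counted only where the dependence on the processing is described.

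**Figure D3:**
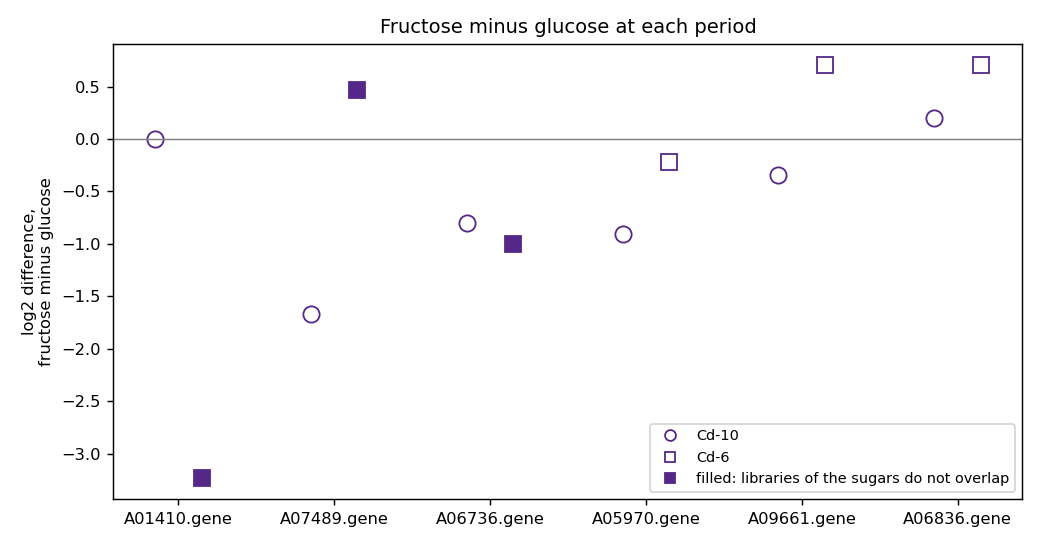
Log2 difference between fructose and glucose in the 6 genes, with circles for Cd-10 and squares for Cd-6, each between the means of 3 libraries per sugar and filled where the libraries of the sugars did not overlap. A01410 lies at 0.00 for Cd-10 and at -3.23 for Cd-6, and no Cd-10 difference is filled.

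At each period the values are likewise a description. At Cd-10 the libraries of the 2 sugars overlapped for all 6 genes, while in 13.8% of all genes every fructose library lay above and in 15% below every glucose library. The 6 log2 differences between fructose and glucose ran from -1.66 for A07489 to 0.20 for A06836. At Cd-6 the libraries did not overlap for A01410 and A06736, which were lower in fructose, with a log2 difference of -1.0025 for A06736, nor for A07489, which was higher in fructose by a log2 difference of 0.47. At Cd-6 the libraries lay apart, with fructose above, in 16.4% of all genes and, with fructose below, in 15.8%. A09661 and A06836 had log2 differences of 0.71 each at Cd-6, with overlapping libraries.

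The replicates of the glucose Cd-10 group were far apart in A07489, A06736 and A05970, and in the same way. Replicate 3 was the highest and replicate 2 the lowest in all 3 genes, with ranges of 3.12, 3.75 and 2.66 on the log2 scale. Over 10396 genes the median range in this group was 0.45, and 0.346%, 0.154% and 0.76% of the genes had a wider range than A07489, A06736 and A05970. In the fructose Cd-10 group the same genes had ranges of 0.56, 0.76 and 1.53, against a median of 0.49. Glucose Cd-10 replicate 3 was the highest library of its group in 6 of the 6 genes and 11 of the 14 listed genes, and in 43.0% of all genes. Glucose Cd-6 replicate 2 was the highest of its group in 5 of the 6 genes, and in 37.6% of all genes. What set these cultures apart was not tested.

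**Figure D4:**
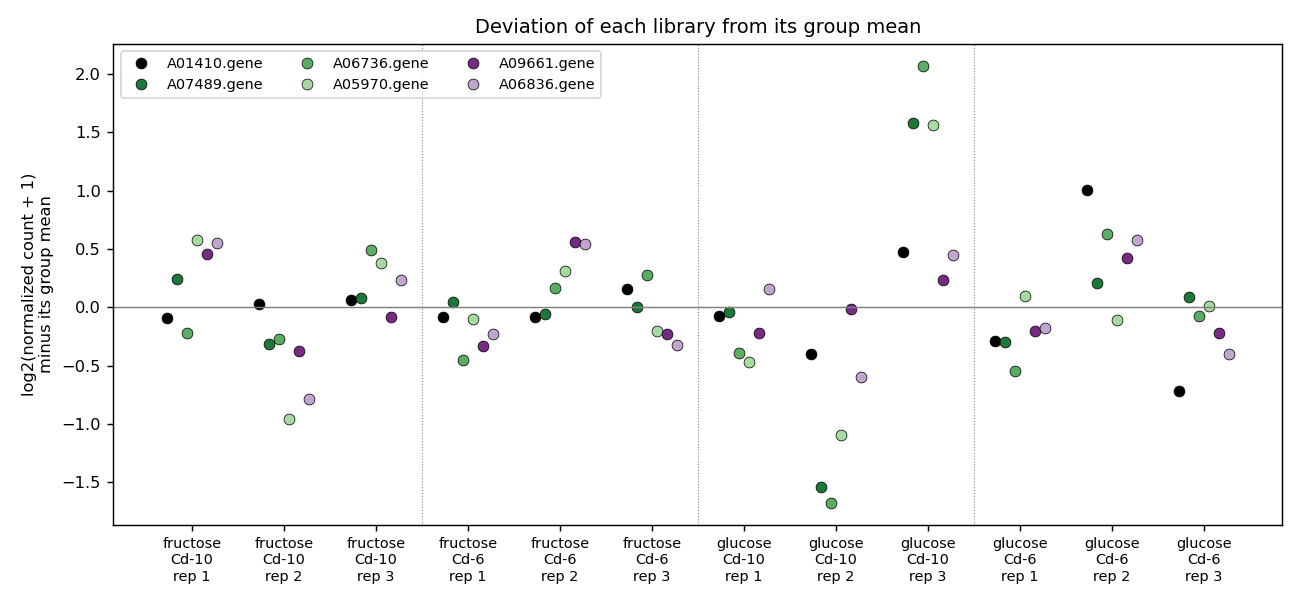
Deviation of log2(normalized count + 1) from its group mean, for each of the 6 genes in each of the 12 libraries, with dotted lines between the groups. In glucose Cd-10 replicate 3, A07489, A06736 and A05970 lie 1.58, 2.07 and 1.57 above their group mean, and in fructose Cd-6 replicate 2, A09661 and A06836 lie 0.56 and 0.55 above theirs.

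Once the group means were removed, the deviations of the 6 genes from culture to culture correlated positively, though weakly in some pairs. Pearson's r between the deviations of 2 genes was positive in all 15 pairs over the 12 libraries, from 0.28 to 0.93 with a median of 0.57, although the genes higher and the genes lower at Cd-10 have opposite patterns across the groups. The median r of each of the 6 genes with all 10395 other genes was between -0.02 and 0.01. A07489, A06736 and A05970 had r of 0.80 to 0.93 with each other, and 0.32 to 0.73 without glucose Cd-10 replicate 3. A09661 and A06836 had r of 0.82, and 0.80 without that library. Across all pairs, leaving it out gave r from -0.08 to 0.80 with 14 of 15 positive. Leaving out glucose Cd-6 replicate 2 instead gave r from 0.03 to 0.94. The r of A01410 then fell from 0.42 to 0.03 with A09661 and from 0.54 to 0.34 with A06836. It rose to 0.76 with A07489, 0.82 with A06736 and 0.66 with A05970, from 0.48, 0.63 and 0.29. These correlations share libraries and depth, rest on few cultures and are given as a description.

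Across the 12 libraries as they stand, A09661 and A06836 followed each other with r = 0.96, where both had been picked for a fall in the same glucose cultures. A09661 ranked 3 among the 10395 other genes for A06836, and A06836 ranked 7 for A09661. The gene nearest to both A06736 (r = 0.96) and A05970 (r = 0.93) was A01792, another gene of the pathway list, which ranked 8 for A07489 (r = 0.92). A01792 had 593, 386 and 1778 normalized counts in the glucose Cd-10 libraries, with the same order of replicates as these genes, against 146, 167 and 141 at glucose Cd-6. The nearest genes were A05257 for A07489 (r = 0.95), A09023 for A09661 (r = 0.98), A05302 for A06836 (r = 0.97) and A00198 for A01410 (r = 0.99). A00198 had means of 1386 ± 276 at fructose Cd-10, 120 ± 8.95 at fructose Cd-6, 1158 ± 46.2 at glucose Cd-10 and 507 ± 282 at glucose Cd-6 (SD, n = 3 each). The choice of nearest gene depended on the measure, since 3 of the 6 stayed the same under library-size scaling and 0 under Spearman's rho.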

How the data were processed

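The authors' methods name Hisat2 for mapping to the strain's genome and featureCounts for counting. The labels name HISAT2 and Cufflinks. Annotation version and strand setting are not given in the sources used here. The authors deposited 1 signal column per library, which holds counts divided by a library factor and not corrected for gene length. Every value (100%) was a whole number of reads within 0.01 of a read once divided by its column's smallest step, in all 12 libraries. Median-ratio factors remaining in the deposited values were 0.944 to 0.961 in fructose and 1.04 to 1.05 in glucose.

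Median-ratio rescaling was therefore applied, within the libraries of each fit, and over all 12 for the printed values. The test was limma 3.58.1 (R 4.3.3) with a variance trend on log2(value + 1), for genes that reached 10 in 3 or more libraries, with Benjamini-Hochberg adjustment over all of them. This scale understates changes of low genes. Alternatives were other scalings, pseudocounts of 0.5 and 5, no filter, no trend, a replicate block, all 12 libraries in one fit, edgeR 4.0.16 and DESeq2 1.42.0 on recovered reads, and each library left out. The scripts were tested on simulated data. Genes named are the 6, listed genes past the fructose test, and the gene nearest to each of the 6 by Pearson's r. Members and lists were chosen with earlier results of these data known. Citrate cycle and glutathione lists are given as counts. The sugar comparison was fitted over all genes. Its p-values are not given for the listed genes, since it shares the glucose libraries with their choice. Its calls of listed genes are counted only to record their dependence on the processing. Plots used matplotlib 3.10.9.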

Additional observations from a re-analysis of the deposited data

How the results depend on the processing

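No direction of the 6 genes reversed under any alternative run. In fructose, leaving A06736 aside, 3 of the 5 other genes were higher and 2 lower at Cd-10 at an adjusted p below 0.05 (limma). With all 12 libraries in one fit, A07489 and A05970 lost their calls. A05970 also lost its call without any 1 fructose library except Cd-10 replicate 2. Without any 1 fructose Cd-10 library, A06736 no longer passed the filter on low values and could not be tested. Leaving out 1 library gave 7 to 10 of the 14 listed genes higher, with A06736 counted where it was tested. Over all genes it gave 901 to 1332 higher and 888 to 1384 lower. The lowest counts came without fructose Cd-6 replicate 1.

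The replicate numbers did not pair the cultures throughout (correlations of same-numbered deviations of -0.20 to 0.18). Between the sugars at Cd-6, each culture correlated best with its own number, with weak r of 0.11, 0.18 and 0.08 for replicates 1, 2 and 3. Between the other groups compared, not every culture did. With the replicate block, 1228 genes were higher and 1252 lower at Cd-10 in fructose, and of the 6 genes only A05970 lost its call (limma adjusted p = 0.088).

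For fructose against glucose, genes higher over all genes numbered 226 with library-size scaling, 227 as deposited and 677 by DESeq2, against 374, and genes lower numbered 1133 as deposited and 866 by DESeq2, against 543. Leaving out 1 library gave 146 to 615 higher and 249 to 686 lower. Counts of listed genes past the threshold there serve as no test, since the glucose libraries chose these genes. They only record how the processing moved them. Of the 14 listed genes, 1 was lower under the main settings, 3 with library-size scaling, 5 as deposited, 2 by edgeR and 4 by DESeq2. Leaving out 1 library gave 1 to 3. Over all genes, those lower numbered 808 of 10403 with library-size scaling, 1133 of 10388 as deposited and 595 by edgeR. Of the 6 genes, 1 was lower, and 2 without glucose Cd-10 replicate 2. Why these counts moved was not tested. With 3 to 53 read pairs per fructose library for A06736, counting error limits its values.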
